A study of Mus musculus with 2 samples.

Results

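Keratinocytes of the oral and gingival epithelium were examined in single cells from mandibular first molars and the tissue around them. Cells were kept with 200 or more genes and up to 20% of their UMIs (unique molecular identifiers, 1 for each captured RNA molecule) from mitochondrial genes. Keratinocytes were chosen by the measured levels of Krt14, Krt5, Krt15 and Lgals7: a kept cell was taken when these genes together gave at least 10 of its UMIs and at least 1% of them. Cells with 1% or more of their UMIs from the enamel genes Ambn, Amtn, Odam and Klk4, or with over 2% from Col1a1, were not taken. In all, 378 of the 17780 kept cells met this rule, of 19015 deposited.

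The cells came from C57BL/6J mice at PN15.5. For the library called Lipo-Clo, mice received liposomes loaded with clodronate, an agent that kills phagocytes such as macrophages, at 40 μg/g on PN3.5, PN6.5 and PN9.5 (postnatal days) and once more on PN12.5. The library called Lipo-PBS came from mice that received liposomes with vehicle only, in a volume matched to the clodronate injections. Mice of both sexes were used in the study, and how many were pooled in a library is not stated. With 1 library per condition there is no test and no replicate check of any value, so the intervals given, all at the 95% level, cover counting error only.

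Stratified oral epithelium renews from a basal layer whose cells carry the keratin pair Krt5 and Krt14 and are anchored to the basement membrane by hemidesmosomes. Cells that leave this layer switch to other keratins, with Krt4 and Krt13 typical of non-keratinized mucosa, Krt1 and Krt10 of keratinized epithelium and Krt76 of gingiva and palate, and are held together by desmosomes. The same oral epithelium gives rise to the enamel organ of the tooth, whose ameloblasts secrete enamel proteins.

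The bases just before the transcription start are shown for 4 of these keratin genes that are described below, the basal pair Krt5 and Krt14 and the suprabasal Krt13 and Krt76. The windows are from RefSeq on GRCm38.p6, 60 bases each, and all 4 genes lie on the minus strand, at chr15:101712906-101712965, chr11:100206031-100206090, chr11:100121567-100121626 and chr15:101892921-101892980 in the order given; for Krt13, 1 of 2 listed starts is shown. Capitals mark the core letters of a TATA box, searched on the gene's own strand, which are ATAAA.
Krt5: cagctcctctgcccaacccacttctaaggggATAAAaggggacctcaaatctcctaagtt
Krt14: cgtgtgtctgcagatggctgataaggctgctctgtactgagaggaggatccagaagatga
Krt13: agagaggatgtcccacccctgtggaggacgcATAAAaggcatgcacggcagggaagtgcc
Krt76: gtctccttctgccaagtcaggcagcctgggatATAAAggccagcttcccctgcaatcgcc
The letters stood in the windows shown for Krt5, Krt13 and Krt76 and not in that of Krt14, and in 7.48% of all 32851 windows of this length. The window of the other Krt13 start, at chr11:100120578-100120637, did not hold them. A match is a description of these letters and no evidence of a site.

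The keratinocytes were 147 of 8886 kept cells in Lipo-Clo (1.65%, exact Clopper-Pearson interval 1.40 to 1.94) and 231 of 8894 in Lipo-PBS (2.60%, 2.28 to 2.95). Their share was 1.57-fold higher in Lipo-PBS, and the log2 ratio of Lipo-Clo over Lipo-PBS was -0.65 (-0.96 to -0.35). Ameloblasts, taken as kept cells with at least 1% enamel gene UMIs, stood the other way, at 7.93% (Lipo-Clo) and 4.49% (Lipo-PBS; log2 ratio 0.82, 0.64 to 1.00). Of the keratinocytes and ameloblasts together, keratinocytes were 17.3% (14.8 to 19.96) in Lipo-Clo and 36.7% (32.9 to 40.6) in Lipo-PBS. How much oral epithelium was taken with each molar is not stated, and its part in this difference was not tested.

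The thresholds were crossed gradually rather than at a gap. Just inside the 1% share lay 21 Lipo-Clo and 36 Lipo-PBS cells with a marker share of 1.0 to 1.2%, and just outside it 15 and 30 cells with 0.8 to 1.0%. Enamel genes alone kept out 61 and 27 cells, and Col1a1 alone kept out 6 and 12.

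The keratinocytes held 694381 UMIs in Lipo-Clo and 918709 in Lipo-PBS. Their median was 4064 UMIs and 1619 genes per cell in Lipo-Clo against 3211 UMIs and 1521 genes in Lipo-PBS, and no cell barcode was shared between the keratinocytes of the libraries (30 were among all deposited cells). Mitochondrial UMIs were 0.806% of the keratinocyte total in Lipo-Clo and 2.19% in Lipo-PBS, against 0.368% and 1.74% over all kept cells. Some members carried RNA of other lineages: 19 in Lipo-Clo and 33 in Lipo-PBS had over 5% haemoglobin UMIs, at least 2 UMIs of an immune, endothelial or glial marker such as Ptprc, Pecam1 or Cdh5, or over 0.5% Col1a1.

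The 4 genes of the rule are given as a description, since they chose the cells. Krt14 and Krt5 were both seen in 141 of 147 Lipo-Clo cells (95.9%) and 219 of 231 Lipo-PBS cells (94.8%), and all 4 genes in 96 (65.3%) and 155 (67.1%). Krt14 gave 7353 CPM (UMIs scaled to a total of 1000000) in the Lipo-Clo cells and 5662 CPM in the Lipo-PBS cells. Krt5 was at 4564 and 4339 CPM, Krt15, a keratin of basal cells, at 1404 and 1191 CPM, and Lgals7, the galectin of stratified epithelia, at 6671 and 7398 CPM.

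Several genes of stratified epithelium that the rule did not use were abundant in summed UMIs, among them Krt13 of non-keratinized mucosa. Krt13 was at 2087 CPM (Lipo-Clo) and 2034 CPM (Lipo-PBS), against 5.64 and 26.3 CPM in ameloblasts and 21.3 and 49.8 CPM in the other kept cells. Most members held little of the mucosal or keratinized keratins. At least 3 UMIs of Krt4 and Krt13 were seen in 32.0% of Lipo-Clo and 25.1% of Lipo-PBS members. At least 3 UMIs of Krt1, Krt10 and Krt76 were seen in 5.44% and 8.23%. Trp63, the master transcription factor of stratified epithelia, was at 374 and 438 CPM, and Col17a1, a collagen of hemidesmosomes, at 746 and 761 CPM. Fabp5, a fatty acid carrier of keratinocytes, was at 1770 and 1767 CPM, and Ly6d at 1547 and 2039 CPM. The keratins of simple epithelium were nearly absent, and the 4 listed summed to 25 UMIs in Lipo-Clo and 24 in Lipo-PBS. Krt8 had 2 and 3 of these, Krt18 had 5 and 0 and Krt19 none, with the rest in the gene not named here.

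Markers of enamel organ epithelium were mostly at or near 0. Shh, Vat1l and Sfrp5 had no UMI in either library, and of the 9 genes listed for it 2 were seen in at least 10% of cells of either library, among them Ntrk2 (30 and 48 CPM). Enam had no UMI and Amelx had 4 and 1. Odam, expressed by ameloblasts and by the junctional epithelium at the tooth surface, had 89 and 94 UMIs, in 37.4% and 28.6% of the cells. Of endothelial cells 30.2% and 31.3% had an Odam UMI (median 1473 and 2638 UMIs per endothelial cell), shares not matched for depth. With each keratinocyte thinned to the same number of UMIs, Odam was seen in 10.2% and 9.17% of them. Its level was 128 and 102 CPM in keratinocytes, lower than the 206 and 438 CPM in endothelial cells. Odam is also an enamel gene of the rule, which limited its level in the keratinocytes in advance. Hair follicle, Merkel cell, salivary, melanocyte and Langerhans cell lists had no gene seen in 10% of the cells of either library.

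**Figure D1:**
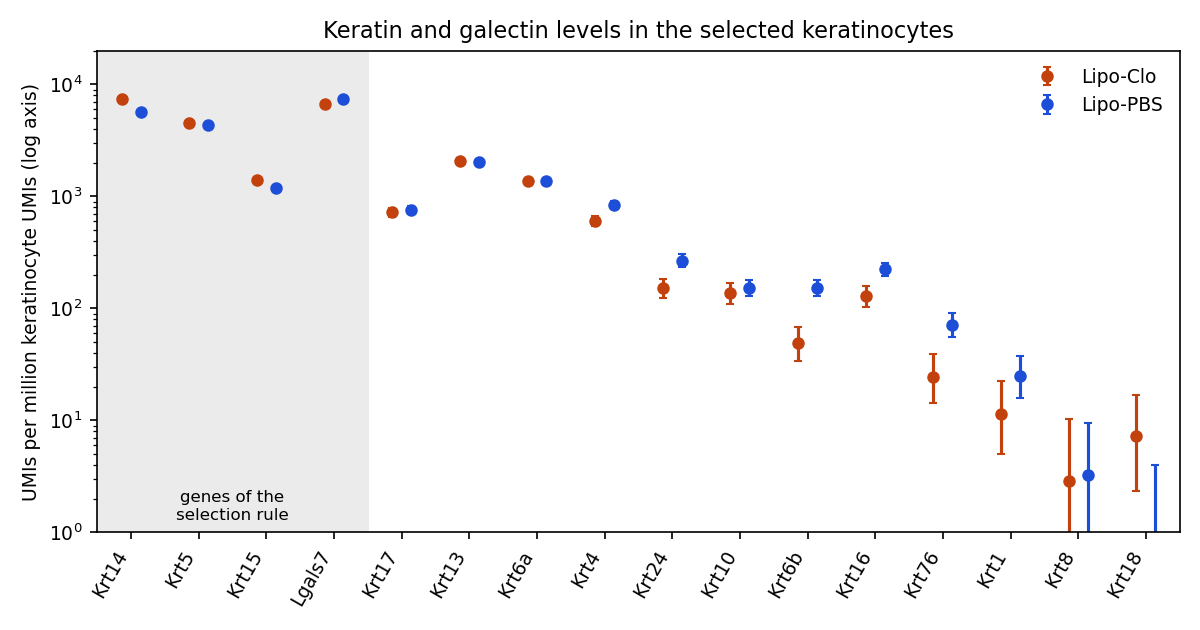
Levels of 15 keratins and Lgals7 in the keratinocytes of each library, in CPM on a log axis, with exact Poisson 95% intervals and the 4 genes of the selection rule on a grey ground. Krt13, Krt6a and Krt17 lie at nearly the same level in both libraries, whereas Krt24, Krt16, Krt6b and Krt76 lie lower in Lipo-Clo, and Krt18 has no UMI in Lipo-PBS, so that only its upper bound is drawn.

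Keratin UMIs were also seen outside the keratinocytes, in shares of cells that differed between the libraries. Free RNA and doublets cannot be told apart as their source, and their part in the keratinocyte values was not tested. Krt14 had a UMI in 97.3% of Lipo-Clo and 97.8% of Lipo-PBS keratinocytes, and in 5.92% and 24.3% of endothelial cells, taken as other kept cells with at least 2 UMIs of Pecam1 and Cdh5. With each keratinocyte thinned to 1000 UMIs (10 and 13 shallower cells left out), Krt14 was seen in 96.4% and 96.3%. Krt13 was seen in 46.9% and 41.1% of keratinocytes, in 35.8% and 31.7% once thinned, and in 0% and 7.87% of endothelial cells. A count of 0 of 321 cells does not fix the share at 0. A rough bound of 3 of 321 cells, or 0.935%, was used here and is not an exact interval.

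Clustering of the 378 cells gave 6 subclusters. Leading genes are given as names, not as results, and the size comparisons between libraries given here come from clustering again without the genes that differed by over 1.5-fold. The 119 cells led by Pappa, Meis2, Lama3 and Mir205hg held the highest Col17a1 level (1209 CPM, both libraries summed) and little Krt4. A suprabasal keratinocyte-like group of 69 cells was led by Calm4, Krt24, Krt16 and Krt17, with 7 of 9 suprabasal markers at 2-fold or more of the median subcluster. A dividing-like group of 32 cells had all 5 division markers so marked.

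The other subclusters could not be given a cell type. In 67 cells led by Krt4, with Krt13 at 4887 CPM, all 12 mesenchyme markers were also marked, and Col1a1, Col1a2 and Col3a1 were among the leading genes. The 19 cells led by haemoglobin genes included 7 from Lipo-Clo and 12 from Lipo-PBS. The remaining 72 cells were led by Trbc2, Car2, Runx1 and Hif1a.

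These 72 Trbc2-Car2 cells had a keratin pattern of their own among the members. Krt14 was at 11741 CPM and Krt6a at 1919 CPM, while Krt15 was at 232 CPM, Krt13 at 171 CPM and Lgals7 at 3165 CPM, each the lowest of the 6 subclusters. Pitx1, a transcription factor of oral and dental ectoderm, was at 346 CPM, Tnc, an extracellular matrix glycoprotein, at 553 CPM, and Slc4a4, a bicarbonate transporter, at 271 CPM. Trbc2 encodes a constant segment of the T cell receptor, yet of 35 Lipo-Clo cells with a Trbc2 UMI only 2 had a UMI of another T cell gene or of Ptprc, and of 23 such Lipo-PBS cells none had.

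**Figure D2:**
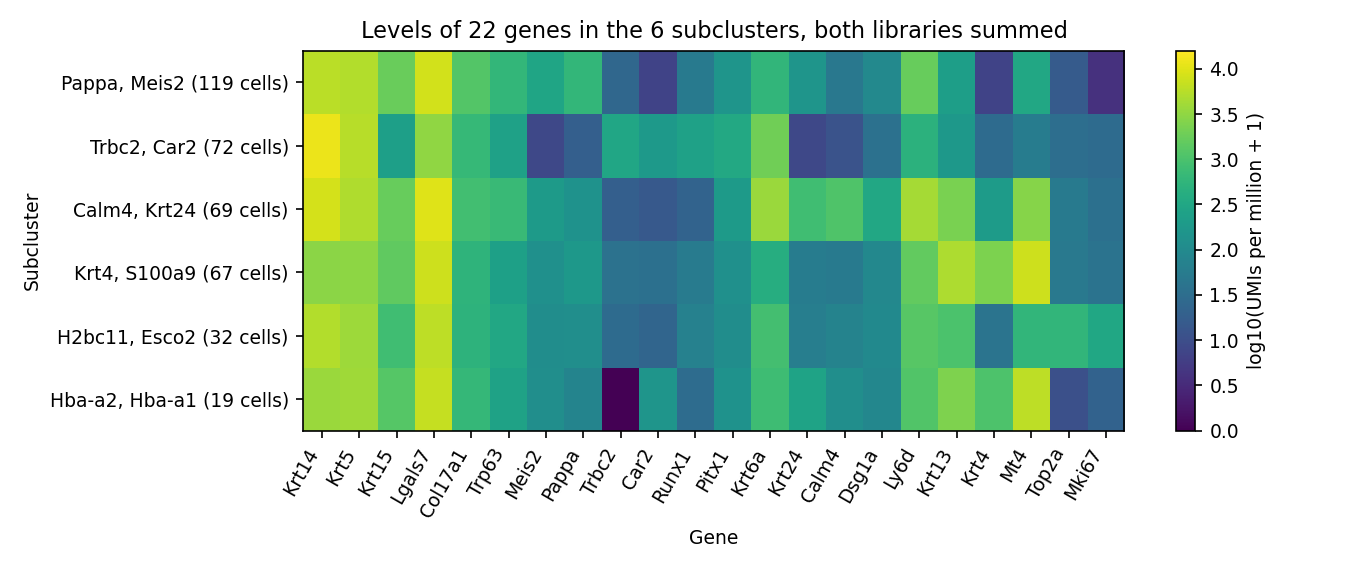
Levels of 22 genes (columns) in the 6 subclusters (rows, named by their first 2 leading genes, with the number of cells), as log10 of CPM plus 1 with both libraries summed. The Trbc2-Car2 row is brightest at Krt14 (11741 CPM) and darkest of the 6 at Krt15 and Krt13, and the Krt4-S100a9 row is brightest at Krt13, Krt4 and Mt4.

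The cells of the Trbc2-Car2 subcluster were a larger part of the Lipo-Clo keratinocytes. When the genes past 1.5-fold were left out of clustering, 64 of the 72 cells (88.9%) fell into 1 cluster of 75 cells, of which they were 85.3%. This cluster held 43 of 147 Lipo-Clo keratinocytes (29.3%, 22.05 to 37.3) and 32 of 231 Lipo-PBS keratinocytes (13.9%, 9.67 to 19.0), a log2 ratio of 1.08 (0.38 to 1.79). The cluster that held 46 of the 69 suprabasal-like cells was 18.4% and 19.9% of the keratinocytes (log2 ratio -0.12, -0.86 to 0.60), and the one that held 22 of the 32 dividing-like cells was 6.12% and 6.49% (-0.08, -1.46 to 1.198). The Pappa-Meis2 cells did not stay together without these genes: 55 of the 119 fell into a cluster of 16.3% and 22.9% (-0.49, -1.251 to 0.23).

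**Figure D3:**
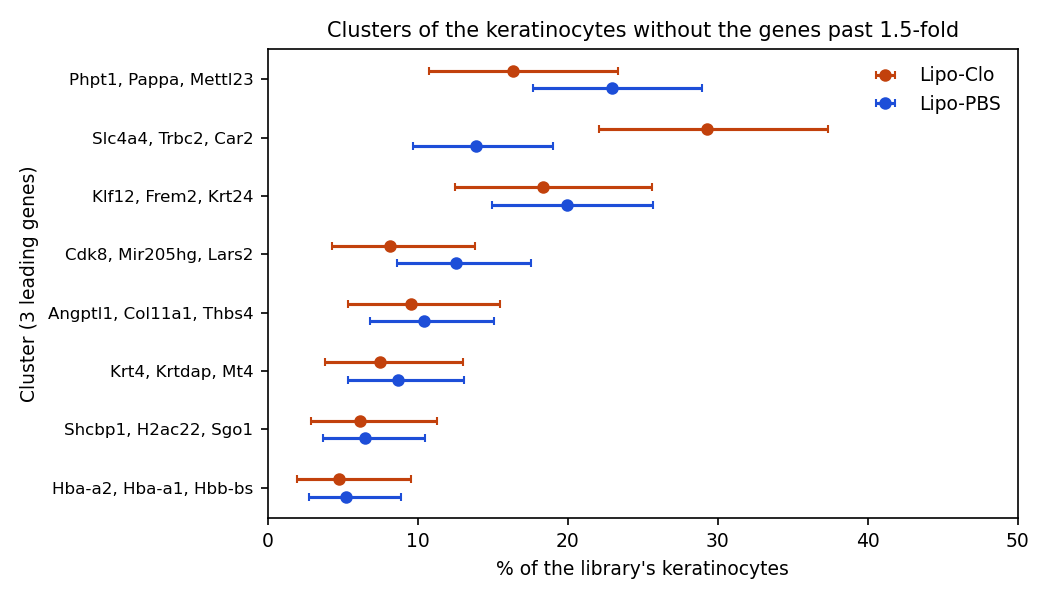
Share of each library's keratinocytes in each cluster, in percent with exact Clopper-Pearson 95% intervals, from clustering without the genes past 1.5-fold, each cluster named by 3 leading genes. The cluster led by Slc4a4, Trbc2 and Car2 makes up 29.3% of Lipo-Clo and 13.9% of Lipo-PBS keratinocytes with intervals that do not overlap, whereas the intervals of the other 7 clusters overlap between libraries.

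Across all keratinocytes, 5834 genes had a UMI in at least 10% of the cells of either library and were compared by their summed UMIs. A gene was counted as higher or lower when its ratio passed 1.5-fold, a limit of size and no test. By this limit 397 genes (6.8%) were higher in Lipo-Clo and 883 (15.1%) lower, so that 31.02% of the genes past the limit were higher. When each cell was scaled to the same total and the means over cells were compared, 645 were higher and 838 lower, or 43.5% higher. A gene could enter through the library in which it was higher, and such a gene had to differ: 283 of the 397 higher and 288 of the 883 lower genes were seen in at least 10% of the cells of 1 library alone. Among the 4598 genes seen in at least 10% of the cells of both libraries, 114 (2.48%) were higher and 595 (12.9%) lower, and the counts of lists below are read with these shares in mind. The median log2 ratio of all genes compared was -0.05.

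**Figure D4:**
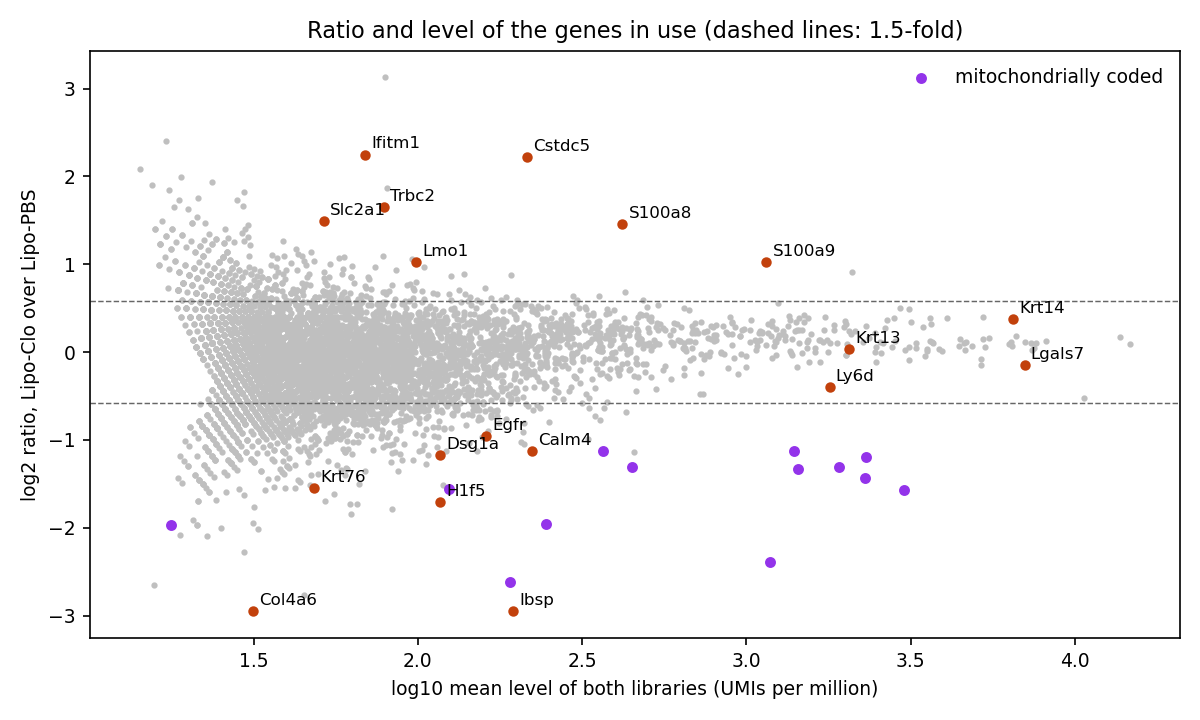
Log2 ratio of Lipo-Clo over Lipo-PBS against the log10 mean level of both libraries, in CPM, for the 5834 genes compared, with the 1.5-fold limit as dashed lines. All 13 mitochondrially coded genes lie under the lower line, Krt14 and Krt13 lie between the lines, and S100a8, S100a9, Trbc2 and Slc2a1 lie over the upper one.

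Of the basal keratins only Krt17 was not a gene of the rule, and its log2 ratio was -0.07 (-0.24 to 0.09). The other 3 helped choose the cells and are not counted. Of the 20 genes of hemidesmosomes and basement membrane, 1 was higher and 4 lower (6.8% and 15.1% of all genes were), with a median of -0.19 beside -0.05 for all genes. Of the 19 seen in 10% of the cells of both libraries, 1 was higher and 3 lower. Col17a1 differed by -0.03 (-0.20 to 0.14) and Itga6, the laminin receptor subunit of the hemidesmosome, by 0.08 (-0.15 to 0.30).

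The genes of this list past the limit are given singly. With 4 of 20 lower, beside 15.1% of all genes, what they encode is not read as a pattern. Col4a6, a chain of type IV collagen, had 5 UMIs against 51 in Lipo-PBS (-2.95, -4.63 to -1.63), with at most 3 UMIs in any cell, and entered through Lipo-PBS alone (3.40% and 19.05% of cells). Col4a5, its usual partner, had 34 and 75 UMIs (-0.74), Lama3, a chain of laminin-332, had 68 and 145 (-0.69), and Frem2, a protein of the epithelial basement membrane, had 53 and 153 (-1.13, -1.60 to -0.67). Cd151, a tetraspanin bound to laminin-binding integrins, was the gene on the other side, with 58 and 39 UMIs (0.98, 0.37 to 1.60).

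Of the genes compared, 3 of 7 suprabasal keratins, 3 of 12 cornified envelope genes and 2 of 11 desmosome genes were lower in Lipo-Clo. These are small counts beside the 15.1% of all genes that were. Of those seen in 10% of the cells of both libraries, 2 of 6, 3 of 10 and 2 of 11 were lower. The share of all such genes was 12.9%. Of 7 suprabasal and barrier keratins compared, 3 were lower and none higher (median -0.48), or 2 of the 6 seen in 10% of the cells of both libraries (median -0.32). Krt76, which entered through Lipo-PBS alone (5.44% and 11.7% of cells), had 17 UMIs against 66 in Lipo-PBS (-1.55, -2.42 to -0.77). Krt24 was at 153 and 268 CPM (-0.81, -1.15 to -0.48) and Krt16, a keratin of wound-activated and gingival epithelium, at 128 and 224 CPM (-0.81, -1.18 to -0.44), whereas Krt13 differed by 0.04 (-0.06 to 0.14) and Krt6a by -0.01 (-0.13 to 0.12). Krt4 was at 603 and 841 CPM (-0.48, -0.65 to -0.31), carried by only 20 and 29 cells.

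Among 12 cornified envelope genes compared, 1 was higher and 3 lower (median -0.12, but 0.12 from a marker share of 0.5%), and of the 10 seen in 10% of the cells of both libraries none was higher and 3 lower. Calm4, a calmodulin-like protein of differentiating keratinocytes, had 97 and 280 UMIs (-1.13, -1.47 to -0.79), of which 80 of the Lipo-PBS UMIs came from 1 cell. Krtdap, secreted during differentiation, had 53 and 136 UMIs (-0.96, -1.44 to -0.49), or a ratio of 0.08 with cells taken from a marker share of 0.5%, and Calml3 had 101 and 251. Asprv1, a protease that processes filaggrin, was the gene on the other side, entered through Lipo-Clo alone and had 23 and 17 UMIs and an interval that included equal levels (0.84, -0.13 to 1.84), and in cells thinned to 1000 UMIs the sign turned (-0.65). Of 11 desmosome genes 2 were lower and none higher (median -0.26): Dsg1a, the desmoglein of upper layers, had 50 and 149 UMIs (-1.17, -1.66 to -0.70) and Dsg1b had 18 and 44 (-0.89, but 0.16 once thinned), while the basal-layer Dsg3 differed by -0.26 (-0.59 to 0.07) and Perp, a desmosomal membrane protein, by -0.01 (-0.17 to 0.15).

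Within the suprabasal keratinocyte-like subcluster some differentiation genes stood further apart. The 7 suprabasal and barrier keratins together had 743 UMIs there in Lipo-Clo and 1552 in Lipo-PBS, which gave a ratio of -0.34 on the log2 scale (-0.46 to -0.21). There Krt76 had 2 UMIs in 24 Lipo-Clo cells and 44 in 45 Lipo-PBS cells, a log2 ratio of -3.73 (-6.82 to -1.79). Krt10 had 8 and 96 UMIs (-2.86, -4.11 to -1.82), Krtdap 6 and 100 (-3.33, -4.81 to -2.16) and Krt6b 6 and 111 (-3.48, -4.96 to -2.32). Sprr1a, a precursor of the cornified envelope, had 0 and 33 UMIs. These UMIs lay in few cells: of the UMIs of 11 such genes, a list chosen after the data were seen, 5 cells held 113 of 188 in Lipo-Clo and 547 of 923 in Lipo-PBS. At Leiden resolutions 0.3 and 1, cells led by Cnfn and Sprr1a split off as a cluster of 7, of which 1 was from Lipo-Clo and 6 from Lipo-PBS. Outside this subcluster the order was not the same. Krt10 had 58 and 5 UMIs in the Trbc2-Car2 cells (2.40, 1.09 to 4.07), 35 of the 58 in 1 cell, and Krt76 had 11 and 13 UMIs in the Pappa-Meis2 cells (1.48, 0.18 to 2.76).

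Of 23 epithelial transcription factors 2 were higher and 2 lower (median -0.14, but 0.17 once thinned). Of these, Irx1 entered through Lipo-Clo alone and Sox21 through Lipo-PBS alone. Irx1, an Iroquois homeobox factor, had 29 and 15 UMIs (1.35, 0.41 to 2.36). Ehf, an ETS factor of epithelia, had 37 and 86 (-0.81, -1.41 to -0.24), and Sox21 had 13 and 28 (-0.70, -1.78 to 0.29, but 0.67 once thinned). Trp63 differed by -0.22 (-0.46 to 0.00).

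Receptors and transducers of growth factor signals were on the lower side where they passed the limit in the TGF-β and BMP list. None of its 23 genes compared was higher and 6 were lower (median -0.33, against -0.17 for the same genes in ameloblasts and -0.39 in the other kept cells). Of the 20 genes seen in 10% of the cells of both libraries, 5 were lower, beside 12.9% of all such genes. Ltbp1, which tethers latent TGF-β to the matrix, had 24 and 80 UMIs (-1.33, -2.06 to -0.66). The receptors Tgfbr1 (23 and 51 UMIs), Tgfbr3 (42 and 91) and Acvr2a (14 and 37) and the transducers Smad4 (34 and 76) and Smad2 (25 and 51) were the others. The ligands Tgfb1 and Tgfb2 had 42 and 44 and 36 and 36 UMIs, with log2 ratios of 0.34 (-0.31 to 0.98) and 0.40 (-0.30 to 1.11).

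Egfr, the main mitogenic receptor of keratinocytes, was at 109 CPM against 212 CPM in Lipo-PBS (-0.96, -1.36 to -0.57), in a list of 6 genes with 1 higher and 1 lower. The receptor Erbb2 was the higher one and entered through Lipo-Clo alone, with 29 and 24 UMIs and an interval that included equal levels (0.68, -0.15 to 1.52). The ligand Hbegf differed by 0.34 (-0.14 to 0.83), but by -1.14 once thinned. Of 23 Wnt and Notch genes 3 were higher, each of them entering through Lipo-Clo alone, and 3 lower (median -0.04, above 0 under several alternatives), and the 3 hedgehog genes compared did not pass the limit. Csf1 and Il34, the ligands of the macrophage growth factor receptor, were near the limit of detection, with 5 and 3 UMIs for Csf1 and 3 and 3 for Il34. Nfkbiz, an inducible regulator of NF-κB targets, had 40 and 105 UMIs (-0.99, -1.55 to -0.45).

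The cell cycle lists had medians of opposite sign over all genes compared. Over genes seen in 10% of the cells of both libraries, both medians were negative. They were -0.48 for 17 S phase genes and -0.19 for 13 G2 and M phase genes. Of 20 S phase genes 1 was higher and 7 lower (median -0.37), with Cdca7 at -0.85 (-1.44 to -0.28) and Hells at -0.72 (-1.36 to -0.11), which act together in chromatin remodelling. Of 22 G2 and M phase genes 2 were higher and 1 lower (median 0.20), with Ube2c, a mitotic ubiquitin-conjugating enzyme, at 0.89 (0.49 to 1.303), and both higher genes entered through Lipo-Clo alone. The 7 lower S phase genes were all seen in 10% of the cells of both libraries. Of 10 replication-dependent histone genes, a list added after the data were seen, 1 was higher and 7 lower (median -0.87), led by H2ac22 with 8 and 72 UMIs (-2.77) and H1f5 with 38 and 164 (-1.71). Of these, 1 higher and 4 lower genes entered through 1 library alone, H2ac22 and H1f5 among them, and of the 5 seen in 10% of the cells of both libraries 3 were lower. In the dividing-like cells alone (13 in Lipo-Clo and 19 in Lipo-PBS) these histones summed to 3065 and 6353 CPM. The log2 ratio was -1.05 (-1.28 to -0.83), while the G2 and M phase genes summed to 7161 and 6265 CPM. Histone genes were among the leading genes of this subcluster, and both sums include genes that entered through 1 library alone. The sums are a description and no separate support for the lists.

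Genes of respiration differed by where they are coded. All 13 mitochondrially coded genes were lower in Lipo-Clo, at log2 ratios of -1.12 to -2.62 (median -1.43), mt-Co1 for instance at 1522 and 4524 CPM. Of 79 nuclear-coded genes of oxidative phosphorylation 2 passed the limit, both higher, yet 74 had a ratio above 0 (median 0.22), Cox8a for instance at 2238 and 1750 CPM (0.35, 0.25 to 0.46). The mitochondrial difference was in every subcluster, from -0.51 in the dividing-like cells to -2.08 in the cells led by Krt4. It was larger outside the keratinocytes, with a median of -2.23 in ameloblasts and -2.31 in the other kept cells, and the nuclear-coded median there was 0.22 and 0.27, so neither was particular to keratinocytes.

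Genes of glycolysis and the response to low oxygen, another list added after the data were seen, had 2 of 25 genes higher, both entering through Lipo-Clo alone, and 2 lower (median 0.25). Slc2a1, the glucose transporter GLUT1, had 53 UMIs in Lipo-Clo and 25 in Lipo-PBS (1.49, 0.78 to 2.24), in 27.9% and 9.52% of cells, or 8.76% and 3.21% once thinned, against 3.43% and 3.76% of endothelial cells. Hilpda, a lipid droplet protein, had 19 and 10 UMIs (1.33, 0.15 to 2.60), Gapdh was at 1529 and 1185 CPM (0.37, 0.24 to 0.49), and on the other side Pfkp, an isoform of phosphofructokinase, had 42 and 89 UMIs (-0.68, -1.24 to -0.13).

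**Figure D5:**
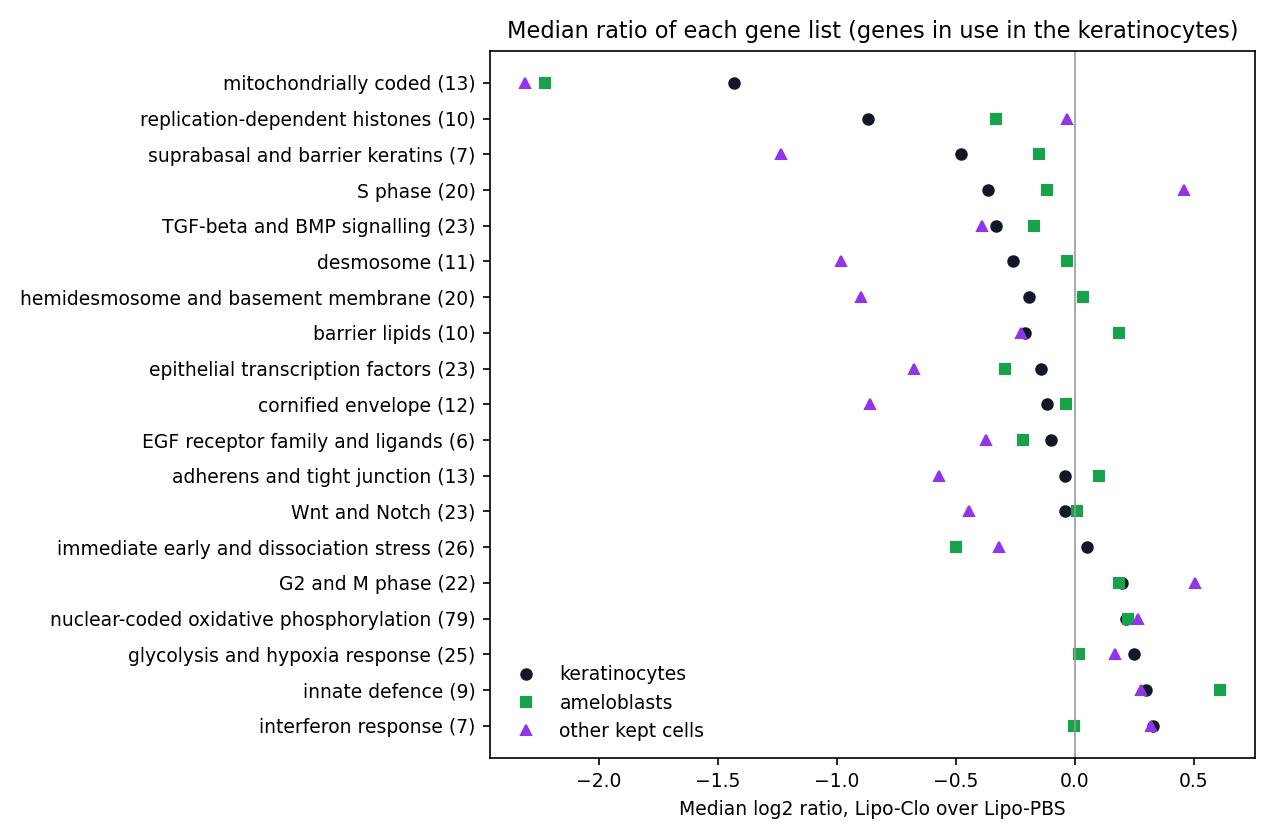
Median log2 ratio of Lipo-Clo over Lipo-PBS for 19 gene lists, with the number of genes compared in brackets, in keratinocytes (circles), ameloblasts (squares) and the other kept cells (triangles). Mitochondrially coded genes lie lowest in all 3 sets of cells (-1.43, -2.23 and -2.31), and the S phase list lies at -0.37 in keratinocytes and at 0.46 in the other kept cells.

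Some innate defence genes were higher in Lipo-Clo, and neutrophil genes were higher beside them. Of 9 compared, 4 were higher and 1 lower (median 0.30, but -0.52 from a marker share of 2% and -0.03 from 0.5%). All but S100a9 of these 5 entered through 1 library alone. S100a8 had 427 UMIs in Lipo-Clo and 206 in Lipo-PBS (1.46, 1.21 to 1.70) and S100a9 had 1070 and 698 (1.02, 0.88 to 1.16); both encode calprotectin, which neutrophils hold in large amounts and stressed keratinocytes also make. A single cell held 215 of the Lipo-Clo and another 120 of the Lipo-PBS UMIs of S100a8. S100a8 was seen in 33.3% and 5.19% of keratinocytes, in 10.9% and 2.75% once thinned, and in 21.2% and 15.03% of endothelial cells. With members taken only from a marker share of 2% the ratios were -0.52 and -1.15, and without members of mixed lineage S100a9 was at -0.43. Neutrophil genes as a list had 4 of 12 genes compared, all higher (median 0.98). They were S100a8 and S100a9 themselves and the granule genes Camp (78 and 54 UMIs) and Ngp (39 and 27), of which S100a8, S100a9 and Camp also stand in the innate defence list, and in the other kept cells the same 4 genes had a median of 2.16. The 10 neutrophil genes apart from S100a8 and S100a9 summed to 381 UMIs in Lipo-Clo (0.0549% of the keratinocyte UMIs) and 220 in Lipo-PBS (0.0239%), with 1 of them, Mpo, at 0 in both libraries. How much of the keratinocyte S100a8 and S100a9 came from free or neutrophil RNA was not tested.

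Of 7 interferon response genes compared 1 was higher (median 0.33), namely Ifi27l2a with 56 and 35 UMIs (1.08, 0.45 to 1.73), while B2m, the light chain of class I molecules, differed by 0.50 (0.09 to 0.92). Of 26 immediate early and dissociation stress genes 2 were higher, the heat shock genes Hspa1a (0.71) and Hspa1b (0.62), and 1 lower, Btg2 (-0.75). Among barrier lipid genes 2 of 10 were lower, both entering through Lipo-PBS alone, among them the elongase Elovl6 (12 and 35 UMIs), and Fabp5 differed by 0.00 (-0.11 to 0.11).

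The 10 genes with the largest ratio in each direction were named by a rule that left out mitochondrial, haemoglobin and other-lineage list genes and asked that, of the subclusters with 30 UMIs of a gene, 75% or more had its sign. Except for Gpx3, Col16a1, Lmo1, Pmp22 and H1f4, only 1 subcluster reached 30 UMIs. For most of these genes the rule therefore compared no subclusters with each other and shows no agreement among them. On the higher side all but Lmo1 and Col16a1 entered through Lipo-Clo alone, and several rested on few cells. Ifitm1, an interferon-induced membrane protein, had 79 and 22 UMIs (2.25, 1.55 to 3.001), 29 of the 79 in 1 cell, and Cstdc5, a cystatin-like gene, had 246 and 70 UMIs (2.22), of which 1 cell per library held 116 and 63; from a marker share of 2% its ratio was -3.18. Gpx3, a secreted glutathione peroxidase, had 88 and 32 UMIs in 26 and 14 cells (1.86, 1.26 to 2.49), and Nat8l, which makes N-acetylaspartate, had 30 and 12 UMIs in 21 and 9 cells (1.73, 0.72 to 2.83). Lmo1, a LIM-only transcriptional cofactor, was the most evenly spread, with 92 and 60 UMIs (1.02, 0.54 to 1.51) in 57 and 43 cells (38.8% and 18.6%, or 12.4% and 7.80% once thinned, against 5.61% and 10.9% of endothelial cells). Gng11, Gadd45a, Ahsp, Col16a1 and Pofut2 completed this side, at ratios of 1.04 to 1.18. Ahsp is an erythroid gene, and Gng11 turned to -0.30 from a marker share of 2% and to -0.96 from 0.5%. In both libraries the other kept cells had higher levels of Ifitm1, Cstdc5, Gpx3, Gng11, Ahsp, Col16a1 and Pofut2 than the keratinocytes. Levels of Nat8l and Lmo1 were lower there in both libraries, and that of Gadd45a only in Lipo-Clo. Cstdc5, for instance, was at 1235 and 294 CPM there, against 354 and 76.2 CPM in keratinocytes.

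On the lower side Ibsp, a bone matrix sialoprotein, had 31 and 317 UMIs (-2.95), of which a single Lipo-PBS cell held 141, and H2ac22, H1f5 and H1f4 are histone genes. On this side H2ac22, H1f5, Krt76 and Hmcn1 entered through Lipo-PBS alone. Krt76 is described above. Meis1, a TALE homeobox factor, had 20 UMIs in 16 Lipo-Clo cells and 88 in 65 Lipo-PBS cells (-1.73, -2.51 to -1.02), with at most 5 UMIs in a cell. Naaladl2 had 19 and 90 UMIs in 16 and 58 cells (-1.84), and Hmcn1, an extracellular matrix protein, had 9 and 46 in 8 and 32 cells (-1.95). Pmp22, a myelin and epithelial membrane protein, had 26 and 119 UMIs (-1.79), 40 of the 119 in 1 cell, and was at 0.15 from a marker share of 2%. Gm17660 had 21 and 92 UMIs (-1.73), and 0.90 from a marker share of 0.5%. Its level was 30.2 and 100 CPM in keratinocytes, against 10970 and 15959 CPM in ameloblasts. Naaladl2 and Hmcn1 were also lower in ameloblasts (-0.90 and -1.32), where Meis1 had 11 and 9 UMIs and an interval that included equal levels (-0.66, -2.07 to 0.79). In the other kept cells Meis1, Naaladl2 and Hmcn1 were at -1.33, -0.73 and -1.13. Ibsp, Pmp22, Naaladl2, Hmcn1 and Gm17660 were at higher levels there than in keratinocytes in both libraries, and Krt76 and Meis1 at lower levels. The histone genes H2ac22, H1f5 and H1f4 were at higher levels there in Lipo-Clo only.

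Trbc2 had 83 UMIs in 35 Lipo-Clo keratinocytes and 35 UMIs in 23 Lipo-PBS keratinocytes, a log2 ratio of 1.65 (1.06 to 2.26). It was seen in 23.8% and 9.96% of them, in 8.03% and 4.59% once thinned and in 1.246% and 3.22% of endothelial cells. Inside the Trbc2-Car2 subcluster its ratio was 0.35 (-0.37 to 1.13), with 62 and 22 UMIs, and there Car2 differed by -0.43 (-1.30 to 0.47), Runx1 by -0.29 (-1.03 to 0.47) and Hif1a by -0.33 (-0.76 to 0.10). With each subcluster given the same weight in the 2 libraries, the ratio of Trbc2 over all keratinocytes was 0.62. Slc2a1, by contrast, had a ratio above 0 in 5 of the 6 subclusters, on 2 to 22 UMIs per library and subcluster in those 5.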

How the data were processed

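The authors deposited 1 matrix of whole-number UMI counts per gene and cell for each library, not normalized. Their submitted notes name Cell Ranger 3.1.0, Seurat 3.1.1 and GRCm39, whereas the file headers name Cell Ranger 8.0.0. No deposited cell annotation was used, so the cells were selected by the stated rule. UMIs were summed over the selected cells of each library and divided by their total. Ratios have exact binomial intervals, levels exact Poisson intervals and shares exact Clopper-Pearson intervals. Cells were clustered with scanpy 1.11.5 (2000 variable genes, 20 components, 15 neighbours, Leiden resolution 0.6). A marker counted for a subcluster at 2-fold or more of the median subcluster and in at least 10% of its cells. Doublets were kept. Scrublet's automatic call marked 0.0107% and 0.0414% of cells and was replaced by the highest scores as an alternative, which marked 10 keratinocytes of each library. edgeR 4.0.16 and DESeq2 1.42.0 gave alternative scaling factors only. Genes named were those of the rule, the leading and most different genes of each list, and the 10 largest ratios in each direction. A few others were named after their values were seen, and some genes counted in the lists are not reported here by name. The ratio script was tested on simulated data. The cells, lists and alternatives were chosen with earlier results of these data known. Promoter windows are RefSeq's on GRCm38.p6, and no coordinates came from the count files.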

Additional observations from a re-analysis of the deposited data

Results flagged for a closer look

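Some genes had opposite ratios of Lipo-Clo over Lipo-PBS in keratinocytes and in other cells of the same libraries, with counting intervals on either side of equal levels. With 1 library per condition none of these differences was tested. Trbc2 had a log2 ratio of 1.65 in keratinocytes and -1.08 in ameloblasts (-2.00 to -0.16), the latter on 21 and 23 UMIs. Irx1 was at 1.35 in keratinocytes, on 29 and 15 UMIs, and -1.15 in the other kept cells (-2.33 to -0.06), on 11 and 24 UMIs. Cd151 was at 0.98 and -0.66 in the same 2 sets of cells. The histone gene H2ac24 was at -1.02 in keratinocytes and 0.80 in the other kept cells.

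For 3 further genes, markers of other lineages, few cells carried the keratinocyte value. Rgs5, a mural cell gene, was at 3.13 in keratinocytes, with 50 of 99 Lipo-Clo UMIs in 1 cell, against -1.08 in ameloblasts and -0.69 in the other kept cells, and was at -0.30 in keratinocytes from a marker share of 2%. Postn, a mesenchyme gene, was at 0.87 in keratinocytes, with 44 of 113 Lipo-Clo UMIs in 1 cell, against -1.06 and -0.60, and lay below 0 in keratinocytes under 5 alternatives (-0.29 to -0.51). Hbb-bt, a haemoglobin gene, was at 0.91 in keratinocytes and -0.82 in ameloblasts, and at -0.49 in keratinocytes without members of mixed lineage.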

How the results depend on the processing

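No paired analysis was possible because there was only 1 library for Lipo-Clo and 1 for Lipo-PBS, so none could be left out either. The log2 ratio of the keratinocyte share stayed below 0 under all alternatives run, from -0.85 to -0.45. The shares themselves were 0.731% and 1.00% from a marker share of 2%, 2.06% and 3.71% from 0.5%, and 2.23% in Lipo-PBS without members of mixed lineage or over 0.5% Col1a1. The Krt4-S100a9 subcluster had a log2 ratio of 0.26, and of 1.37 without those members, both from clusterings that kept the genes past 1.5-fold, against 0.96 at Leiden resolution 1 and -0.13 without those genes. The number of genes higher in Lipo-Clo was 397, against 870 from a marker share of 2%, 228 from 0.5%, 645 by the mean over cells, 168 once thinned, 628 for genes with at least 20 UMIs, 817 for genes in at least 5% of cells, 114 for genes in at least 10% of the cells of both libraries, 103 at a 2-fold limit and 1044 at a limit smaller than 1.5-fold. The number lower was 883, against 271 once thinned, 1559 with at least 20 UMIs, 1652 in at least 5% of cells, 595 in both libraries, 220 at 2-fold and 1705 at the smaller limit. Among values past 1.5-fold the direction turned for these, and the cause was not tested. From a marker share of 2%, they were S100a8 (-0.52), S100a9 (-1.15), Cstdc5 (-3.18), Fcer1g (-0.72), Gng11 (-0.30), Rgs5 (-0.30), Postn (-0.43), Acta2 (0.48), Pmp22 (0.15) and the neutrophil median (-0.25). From 0.5%, they were Ccl27a (-0.031), Gm17660 (0.90), Gng11 (-0.96), Krtdap (0.081) and Postn (-0.51). Postn was also at -0.30 without predicted doublets, -0.29 with Col1a1 at most 0.5% and -0.31 without members of mixed lineage or over 0.5% Col1a1. Without members of mixed lineage, Hbb-bt was at -0.49 and S100a9 at -0.43, and also without those over 0.5% Col1a1 they were at -0.45 and -0.33. Once thinned, Anp32e was at 0.085, Asprv1 at -0.65, Dsg1b at 0.16, Duox1 at 0.67, Maml2 at 0.12 and Sox21 at 0.67. With the same mixture of subclusters in both libraries, Car2 was at -0.015. Medians nearer 0 also changed sign, so that 14 of 29 lists had a median of opposite sign under some alternative, innate defence, cornified envelope, Wnt and Notch and mesenchyme among them, and Hbegf was at -1.14 once thinned. Of the list medians recomputed, 139 moved by more than the margin of the counting interval of the list's summed UMIs, 266 by less, and 1 reversed. Of the other gene values, 1946 moved by less than their counting interval and 252 by more. The Pappa-Meis2 subcluster had no match holding over 50% of its cells at Leiden resolution 1 or without the genes past 1.5-fold, so it has no value there. The alternatives that left out members of mixed lineage together with those over 0.5% Col1a1, or cells under 1000 UMIs, and the one that asked for genes in both libraries, were chosen after seeing the data. With 147 and 231 cells, intervals over 1 log2 unit wide were not limited to the genes of fewest UMIs. Cd151, with 58 and 39 UMIs, had an interval of 0.37 to 1.60. That of Nfkbiz, with 40 and 105 UMIs, was -1.55 to -0.45.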
